A study of Homo sapiens with 9 samples.

Results

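The cadherins and protocadherins of HCT116, a human colorectal cancer (CRC) cell line, were followed in RNA-seq of 9 samples. The genes were taken from the count table by name: every protein-coding gene whose symbol begins as that of a numbered cadherin (CDH), a protocadherin (PCDH), FAT1 to FAT4, CELSR1 to CELSR3, DCHS1 or DCHS2, or CDHR1 to CDHR5. CDH1 (E-cadherin) was left out of this set. The rule found 80 of the 31558 genes in the table. GENCODE version 44 lists 102 protein-coding genes under the same names, and the other 22 were not analysed here. The HCT116 cells came in 3 groups of 3 biological replicates. CRLM1-OE cells stably overexpressed the lncRNA CRLM1 (LINC01767), Ctrl cells carried the empty plasmid, and Anti cells carried a plasmid with the antisense sequence of CRLM1. Each group is 1 stable line, so a difference between lines that arose when they were made and an effect of the insert cannot be told apart, and p-values measure the spread between these samples. CRLM1 had between 32751 and 38704 counts in the CRLM1-OE samples, 0 in each Ctrl sample and between 1540 and 1951 in the Anti samples. Whether the counts in Anti come from sense or antisense RNA was not tested, because the use of strand in counting is not given. Total counts ranged from 33302292 to 44514692 per sample, at which 3 counts, the smallest signal considered, correspond to 0.0674 to 0.0901 CPM (counts scaled to the library total).

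Cadherins are calcium-dependent adhesion proteins that reach across the space between cells and bind the same or a related protein on the neighbouring cell. Classical cadherins hold on to the actin skeleton through catenins, desmosomal and intestinal relatives use other partners, and the very large FAT, DCHS and CELSR proteins take part in growth control and planar cell polarity. The clustered protocadherins lie in 3 arrays on chromosome 5, are best known from neurons, where each cell chooses a few promoters, and are otherwise low in epithelium.

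The family was dominated by a few genes. CDH3 and FAT1 alone held 82.2% of all counts on the 80 genes, and only 14 genes had a mean of at least 50 counts over the 9 samples. A mean below 10 counts was found for 61 genes, 48 had 0 counts in at least 1 sample, and 30 never exceeded 3 counts. FPKM, a level per exon length that allows genes to be compared, was given for 69 of the genes, and 8 reached a mean of 1 FPKM in at least 1 group. In Ctrl these 8 ran in the order CDH3 (60.4 FPKM), FAT1 (27.9), PCDH1 (7.75), CELSR1 (3.33), CDH24 (2.80), CDH15 (2.09), CELSR2 (1.10) and CELSR3 (0.553). No gene overlapped its neighbour in this order, the closest being CDH24 (highest Ctrl sample 3.09 FPKM) under CELSR1 (lowest 3.22 FPKM), a gap smaller than the SD of CDH24 in Ctrl (0.306). The family took 0.0938% to 0.0981% of all counts in Ctrl, 0.0954% to 0.0962% in CRLM1-OE and 0.111% to 0.113% in Anti.

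**Figure D1:**
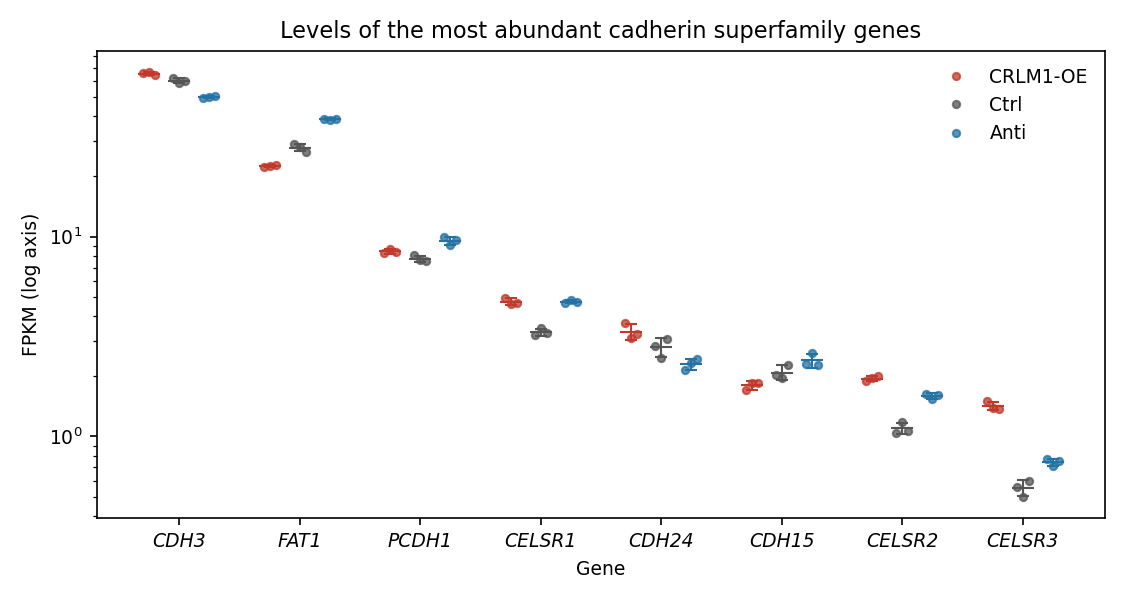
FPKM (log axis) of the 8 most abundant genes in each sample; points are single samples, horizontal bars the group mean and error bars the SD (n = 3). CELSR3 and CELSR2 lie highest in CRLM1-OE and lowest in Ctrl, FAT1 lies highest in Anti and lowest in CRLM1-OE, and CDH3 lies lowest in Anti.

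Counts were compared with edgeR's quasi-likelihood test, with Benjamini-Hochberg adjustment over all genes tested, and a gene passed at an adjusted p of at most 0.05. In CRLM1-OE against Ctrl, 75 of the genes had a count and were tested. Of these, 5 rose and 4 fell, beside 15% and 16.8% of all genes tested. Against Anti, 7 were higher and 4 lower of 78 tested, beside 17.1% and 18.5% of all genes. In Anti against Ctrl, 6 were higher and 3 lower of 75, beside 11.5% and 12.2% of all genes. The median log2 fold change of the tested genes was 0.15, -0.030 and 0.34 in these 3 comparisons, beside 0.017, -0.023 and 0.0047 over all genes. Among the 14 genes with a mean of at least 50 counts, 7, 9 and 7 passed, beside 65.3%, 72.2% and 50.8% of all genes with as many counts. The median of these 14 genes was 0.011, 0.035 and 0.10, beside -0.039, -0.032 and -0.0032 for all genes with as many counts. The comparisons share samples (each group enters 2 of them), so their values are given side by side and not as separate support.

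A change of at least 2-fold as well was rarer. In CRLM1-OE against Ctrl it was found for CELSR3 and CDHR5, both higher, beside 2.5% of all genes higher, 0.915% lower and 3.41% in both directions. By the edgeR and DESeq2 tests 0 genes of the family were lower past this limit, and 3 were at an unadjusted edgeR p under 0.05. Against Anti it was found for FAT2 and CDHR5, both higher, beside 3.09% higher, 2.56% lower and 5.65% in both directions among all genes, and 2 were lower at an unadjusted p under 0.05. In Anti against Ctrl it was found for PCDHB9, which was higher, and PCDHGB2, which was lower, beside 0.683% and 0.38% of all genes and 1.06% in both directions. Of these 5 genes CELSR3 was abundant, and the other 4 had at most 32 counts in any sample.

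**Figure D2:**
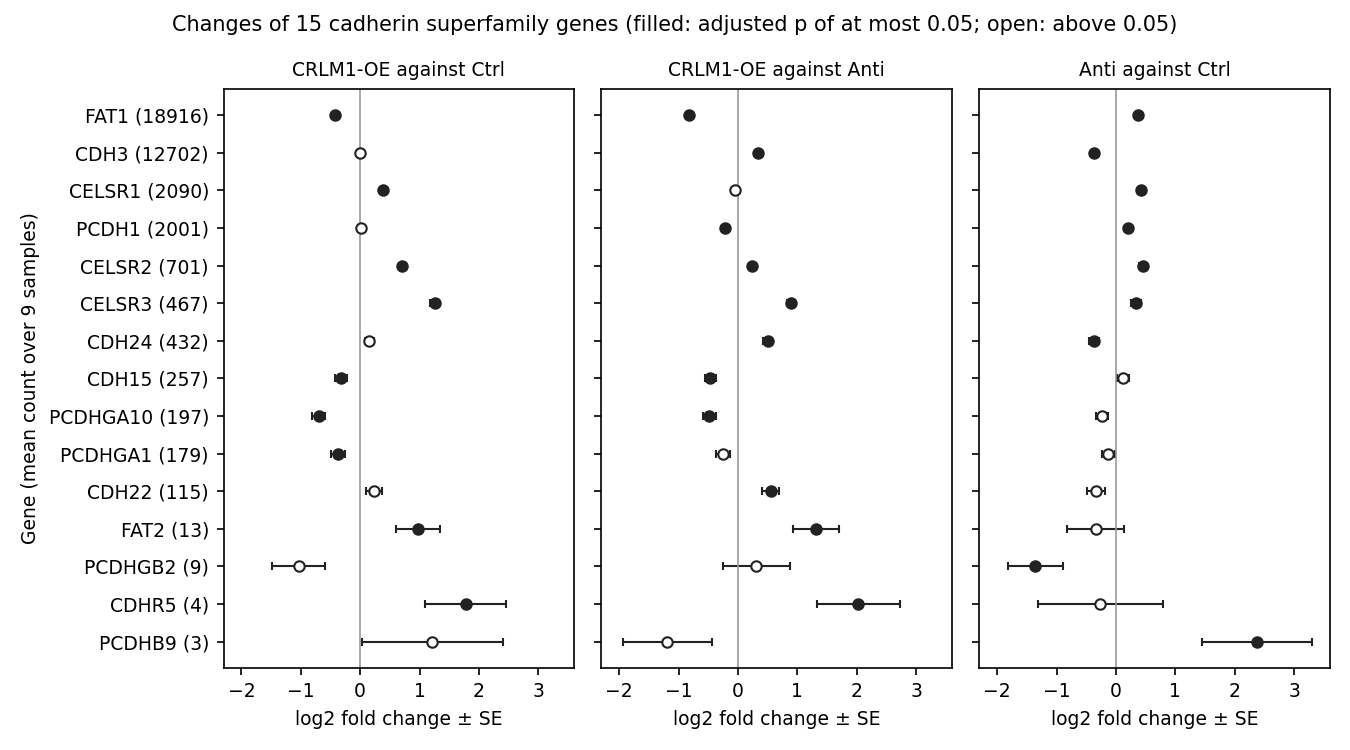
Log2 fold change with its standard error (horizontal axis) of the 15 genes that passed in at least 1 comparison, ordered by mean count, in the 3 comparisons. The 3 CELSR genes lie right of 0 in CRLM1-OE against Ctrl and in Anti against Ctrl, FAT1 lies left of 0 in both comparisons of CRLM1-OE, and error bars are widest at the genes of fewest counts, FAT2, PCDHGB2, CDHR5 and PCDHB9.

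The CELSR genes encode the vertebrate counterparts of Flamingo, cadherins with a membrane-spanning receptor part that carry planar cell polarity from cell to cell. All 3 were higher in CRLM1-OE and in Anti than in Ctrl. CELSR3 had 858, 631 and 721 counts in CRLM1-OE, 331, 244 and 283 in Ctrl and 422, 359 and 357 in Anti. No group overlapped another, and the lowest CRLM1-OE sample lay above the highest Anti sample. The FPKM of CELSR3 was 1.42 ± 0.0666 (SD, n = 3) in CRLM1-OE, 0.553 ± 0.0503 for the Ctrl samples and 0.743 ± 0.0306 in Anti. Its level was 2.39-fold higher in CRLM1-OE than in Ctrl (log2 fold change 1.25, SE 0.075, edgeR adjusted p = 8.9e-61) and 1.86-fold higher than in Anti (0.89, SE 0.070, adjusted p = 9.2e-36), while Anti exceeded Ctrl 1.27-fold (0.34, SE 0.089, adjusted p = 8.9e-04). This last result did not pass in limma on log2(FPKM + 0.1) or log2(FPKM + 1) (adjusted p = 0.089 and 0.066).

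CELSR2 followed the same order at a smaller size. It had 952, 781 and 920 counts in CRLM1-OE, 544, 509 and 447 in Ctrl and 786, 689 and 678 in Anti, or 1.95 ± 0.0551, 1.10 ± 0.0737 and 1.60 ± 0.0529 FPKM. Counts of CRLM1-OE and Anti overlapped by 1 sample of each (781 and 786), but their FPKM values, which take depth into account, did not. The log2 fold change was 0.71 (SE 0.064, edgeR adjusted p = 1.3e-27) against Ctrl and 0.24 (SE 0.059, adjusted p = 1.8e-04) against Anti, and 0.45 (SE 0.068, adjusted p = 3.9e-10) in Anti against Ctrl.

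CELSR1, the most abundant of the 3, did not separate CRLM1-OE from Anti. Counts were 2689, 1991 and 2302 in CRLM1-OE, 1829, 1620 and 1482 in Ctrl and 2425, 2327 and 2146 in Anti. The samples of CRLM1-OE and Anti lay among each other and all were above those of Ctrl. The log2 fold change was 0.39 (SE 0.040, edgeR adjusted p = 2.6e-21) in CRLM1-OE and 0.42 (SE 0.040, adjusted p = 3.3e-24) in Anti, both against Ctrl, and -0.049 (SE 0.036, adjusted p = 0.34) in CRLM1-OE against Anti.

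The upstream bases of CELSR2 and CELSR3, which rose together, and of FAT1, which fell in the same cells, are shown because these are the abundant genes with opposite changes. The windows come from RefSeq on GRCh38.p14, end at the base before the annotated start (for FAT1 the outer of its 2 starts), are written 5′ to 3′ on the strand of the gene and hold 250 bases each. Capitals mark GGGCGG, the GC box bound by SP1-like factors, on either strand. CELSR2 starts on the forward strand of chromosome 1 (window chr1:109249289-109249538), CELSR3 on the reverse strand of chromosome 3 (window chr3:48662887-48663136) and FAT1 on the reverse strand of chromosome 4 (window chr4:186726697-186726946).
CELSR2: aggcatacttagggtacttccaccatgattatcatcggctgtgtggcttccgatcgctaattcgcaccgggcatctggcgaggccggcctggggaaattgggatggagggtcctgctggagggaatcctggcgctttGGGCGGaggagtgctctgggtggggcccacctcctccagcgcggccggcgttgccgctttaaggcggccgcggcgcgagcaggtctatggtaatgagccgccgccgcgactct
CELSR3: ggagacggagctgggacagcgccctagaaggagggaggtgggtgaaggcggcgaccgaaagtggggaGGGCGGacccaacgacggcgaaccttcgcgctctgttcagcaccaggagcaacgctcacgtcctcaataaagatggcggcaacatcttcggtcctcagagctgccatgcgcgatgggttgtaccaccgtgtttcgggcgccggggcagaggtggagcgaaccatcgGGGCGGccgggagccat
FAT1: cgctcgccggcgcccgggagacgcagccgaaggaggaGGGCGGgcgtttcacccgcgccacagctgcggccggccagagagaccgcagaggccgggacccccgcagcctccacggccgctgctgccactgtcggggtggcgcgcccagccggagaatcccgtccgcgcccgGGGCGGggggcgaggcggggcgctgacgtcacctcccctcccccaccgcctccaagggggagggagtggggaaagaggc
The windows hold 1, 2 and 2 boxes and 64.4%, 65.2% and 78.0% G and C, against a median of 58.0% over all 35116 windows of the table. The box was found in 42.6% of all windows, and in 12 of the 25 genes of the family outside the protocadherin clusters that have a window. Whether it bears on the changes of these genes was not tested. CELSR1 has no window in the table.

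FAT1, a giant cadherin that restrains growth and shapes actin at cell contacts, moved opposite to the CELSR genes in CRLM1-OE. It had 15807, 12703 and 14740 counts in CRLM1-OE, 21367, 17052 and 15516 in Ctrl and 26062, 24012 and 22985 in Anti. Counts of CRLM1-OE and Ctrl overlapped by 1 sample of each, and the FPKM values of all 3 groups stood apart, with 22.6 ± 0.252, 27.9 ± 1.24 and 38.6 ± 0.428 (SD, n = 3) in the same order. FAT1 was 1.34-fold lower in CRLM1-OE than in Ctrl (log2 fold change -0.42, SE 0.022, edgeR adjusted p = 4.8e-78) and 1.76-fold lower than in Anti (-0.82, SE 0.019, adjusted p = 1e-300, the smallest value written). In Anti against Ctrl it was higher (0.37, SE 0.021, adjusted p = 1.2e-68). The CRLM1-OE and Anti lines thus lay on opposite sides of Ctrl.

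The relatives of FAT1 were low. FAT4 had 38 to 90 counts in every sample and passed in no comparison with TMM scaling (log2 fold change 0.015, 0.42 and -0.43, adjusted p = 0.98, 0.078 and 0.10 in CRLM1-OE against Ctrl, CRLM1-OE against Anti and Anti against Ctrl). DCHS1, the ligand of FAT4, had 8 to 26 counts and also passed in none with TMM scaling (0.83, 0.28 and 0.53, adjusted p = 0.070, 0.54 and 0.42). With library totals in place of TMM factors, DCHS1 passed against Ctrl (0.97, adjusted p = 0.026) and FAT4 against Anti (0.48, adjusted p = 0.037). FAT3 and DCHS2 held 5 and 6 counts over all 9 samples.

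FAT2, a FAT cadherin known from migrating epithelial sheets, had 14, 32 and 18 counts in CRLM1-OE, 20, 4 and 7 in Ctrl and 8, 11 and 6 in Anti. CRLM1-OE overlapped with Ctrl and not with Anti. FAT2 passed against Ctrl (log2 fold change 0.97, SE 0.37, edgeR adjusted p = 0.029) and against Anti (1.31, SE 0.39, adjusted p = 0.0028). Both results rested on the CRLM1-OE replicate 2 with 32 counts, without which the log2 fold change was 0.47 (adjusted p = 0.54) against Ctrl and 0.79 (adjusted p = 0.22) against Anti. Against Ctrl it was also 0.64 (adjusted p = 0.25) without Ctrl replicate 2 and 0.84 (adjusted p = 0.098) without Ctrl replicate 3, and it was 1.74 (adjusted p = 0.0013) without Ctrl replicate 1, which had 20 counts. By the DESeq2 Wald test FAT2 did not pass against Ctrl (adjusted p = 0.14), nor did it with filterByExpr (edgeR adjusted p = 0.052). In limma on log2(FPKM + 0.1) or log2(FPKM + 1) it did not pass against Ctrl either (adjusted p = 0.38 and 0.39). Against Anti it did not pass in limma on log2(FPKM + 0.1).

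CDH3 (P-cadherin), a classical cadherin of epithelium that is raised in many carcinomas, was the most abundant of the family per exon length. It had 15791, 12717 and 14076 counts in CRLM1-OE, 15535, 12066 and 11956 in Ctrl and 11317, 10742 and 10114 in Anti. Every Anti sample lay below every sample of the other groups, and CRLM1-OE and Ctrl overlapped. The log2 fold change was 0.0013 (SE 0.023, edgeR adjusted p = 0.98) in CRLM1-OE against Ctrl, 0.34 (SE 0.021, adjusted p = 9.3e-59) in CRLM1-OE against Anti and -0.36 (SE 0.023, adjusted p = 3.7e-52) in Anti against Ctrl. In FPKM, CRLM1-OE (65.4 ± 1.26) and Ctrl (60.4 ± 1.62, SD, n = 3) did not overlap for CDH3, so that against Ctrl the result depends on the scaling: with library totals in place of TMM factors the log2 fold change was 0.14 (adjusted p = 3.8e-09).

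This scaling matters for the family as a whole. Library totals move the median of all genes with enough counts from -0.014 to 0.13 in CRLM1-OE against Ctrl and from 0.0055 to 0.11 in Anti against Ctrl, and from -0.017 to 0.042 in CRLM1-OE against Anti. Under library totals the comparison of CRLM1-OE with Ctrl gave 10 higher and 2 lower genes of the family, in place of 5 and 4. The share of all genes passing under library totals is not given here, so these counts are not read as particular to the family. Beside CDH3, PCDH1 and CDH24 were then also higher (log2 fold change 0.15 and 0.29, adjusted p = 0.0011 and 4.2e-04), as were CDH22 (0.38, adjusted p = 0.021) and DCHS1 (0.97, adjusted p = 0.026), and CDH15 and PCDHGA1 were no longer lower (-0.18 and -0.22, adjusted p = 0.19 and 0.15). The CELSR genes, FAT1 and PCDHGA10 kept their direction and passed in this comparison under TMM, RLE and library totals.

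CDH24, a type II cadherin that binds catenins, had 628, 421 and 503 counts in CRLM1-OE, 499, 359 and 434 in Ctrl and 346, 352 and 346 in Anti. Anti lay lowest, below each sample of the other groups. In FPKM CRLM1-OE (3.12 to 3.69) lay above Ctrl (2.48 to 3.09). The log2 fold change was 0.15 (SE 0.075, edgeR adjusted p = 0.12) in CRLM1-OE against Ctrl, 0.50 (SE 0.078, adjusted p = 7.1e-10) in CRLM1-OE against Anti and -0.37 (SE 0.083, adjusted p = 5.3e-05) in Anti against Ctrl, the same signs as for CDH3. CDH22, another type II cadherin, had 154, 104 and 168 counts in CRLM1-OE, 111, 113 and 110 in Ctrl and 120, 79 and 79 in Anti. Its counts overlapped between all groups, but in FPKM CRLM1-OE (0.70 to 0.98) lay above Anti (0.48 to 0.67). CDH22 passed in CRLM1-OE against Anti (0.55, SE 0.14, edgeR adjusted p = 3.6e-04), but not in limma on log2(FPKM + 0.1) or log2(FPKM + 1) (adjusted p = 0.066 and 0.070). CDH22 was at 0.23 (adjusted p = 0.22) against Ctrl, or 0.38 (adjusted p = 0.021) under library totals. In Anti against Ctrl it was at -0.34 (adjusted p = 0.086), and at -0.45 (adjusted p = 0.027) without Ctrl replicate 1 and -0.52 (adjusted p = 0.013) without Anti replicate 1. The result of CDH24 in Anti against Ctrl did not pass in the same limma fits (adjusted p = 0.099 and 0.12), and in CRLM1-OE against Ctrl CDH24 was at 0.24 (adjusted p = 0.017) without Ctrl replicate 3.

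CDH15 (M-cadherin), known from muscle, was present at 232, 201 and 230 counts in CRLM1-OE, 286, 227 and 257 in Ctrl and 299, 318 and 260 in Anti. In counts CRLM1-OE lay lowest, overlapping with Ctrl and not with Anti. In FPKM CRLM1-OE (1.7 to 1.86) lay below Ctrl (1.95 to 2.29) as well. CDH15 fell in CRLM1-OE against Ctrl (log2 fold change -0.32, SE 0.10, edgeR adjusted p = 0.0057) and against Anti (-0.47, SE 0.098, adjusted p = 1.0e-05), and its value in Anti against Ctrl was 0.12 (adjusted p = 0.47). The result against Ctrl was -0.24 (adjusted p = 0.11) without Ctrl replicate 3 and -0.28 (adjusted p = 0.0503) without CRLM1-OE replicate 1. It did not pass in limma on log2(FPKM + 0.1) or log2(FPKM + 1) (adjusted p = 0.13 and 0.15).

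CDH2 (N-cadherin), often read as a sign of mesenchymal change, had 2 counts in each CRLM1-OE sample and 0 in each sample of Ctrl and Anti. All values lie at or under 3 counts, and no fold is given. The vascular CDH5 had 0 to 3 counts, and CDH17, the intestinal cadherin that is abundant in most colonic epithelium, had 1 to 11 counts per sample. The other type II cadherins (CDH6, CDH7, CDH8, CDH18 and CDH20) held 2 to 10 counts over all 9 samples, CDH4 held 34, and CDH13, CDH16, CDH23 and CDH26 held 6 to 32.

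PCDH1, a protocadherin of epithelial junctions and the most abundant protocadherin here, had 2143, 1788 and 1981 counts in CRLM1-OE, 2172, 1689 and 1614 in Ctrl and 2451, 2094 and 2076 in Anti. Its FPKM was 8.45 ± 0.223, 7.75 ± 0.270 and 9.55 ± 0.430 (SD, n = 3), with each Anti sample above each sample of the other groups. The log2 fold change was 0.0069 (SE 0.040, edgeR adjusted p = 0.93) in CRLM1-OE against Ctrl, -0.22 (SE 0.037, adjusted p = 1.1e-08) in CRLM1-OE against Anti and 0.21 (SE 0.039, adjusted p = 9.3e-07) in Anti against Ctrl. PCDH19 and PCDH7 held 150 and 108 counts over all 9 samples and passed in none of the comparisons. The other non-clustered protocadherins held 3 to 43 counts over all samples.

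The clustered protocadherins contributed 41 genes, 9 alpha, 12 beta and 20 gamma, and nearly all were close to 0. Over the 9 samples the alpha genes held 1308 counts, the beta genes 221 and the gamma genes 3760. Within the gamma cluster PCDHGA10 (1772 counts) and PCDHGA1 (1612) took 90% of all counts, and the next gene, PCDHGB2, had 85. Within the alpha cluster PCDHAC2 (567) and PCDHA1 (534) took 84.2%, and in the beta cluster, where no gene exceeded 60, PCDHB13 and PCDHB14 took 48.4%. In bulk RNA, fewer cells that express a gene and less RNA per cell cannot be told apart.

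Annotated models of these genes overlap. Each alpha gene shares 2869 to 3011 exonic bases with others of its cluster and each gamma gene 2177 to 4443, while beta genes share none. How reads in such shared exons were counted is not given in the sources used here, so counts of single alpha and gamma genes are uncertain. With 6 of the 9 alpha and 14 of the 20 gamma genes at 0 counts in at least 1 sample, reads in the shared exons were not given to every gene of a cluster. PCDHA1 and PCDHGA1 are the first genes of their clusters, and whether their counts include such reads was not tested.

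**Figure D3:**
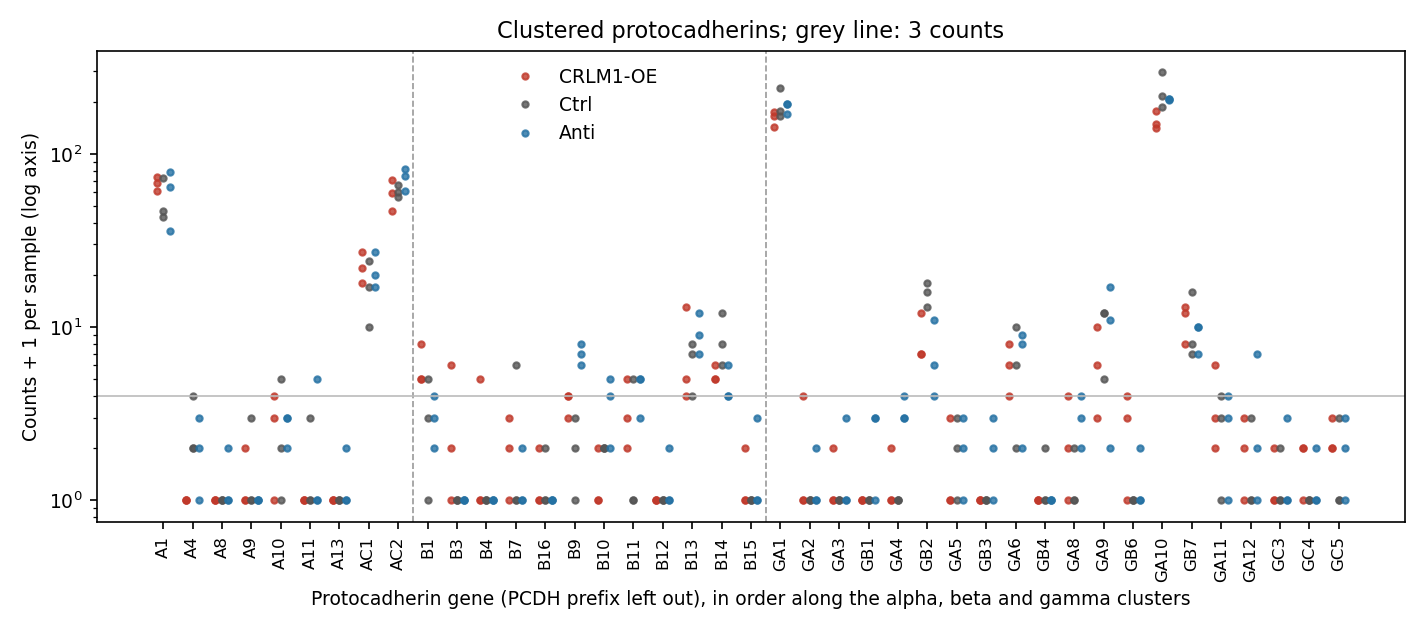
Counts plus 1 (log axis) of the 41 clustered protocadherins in each sample, in order along the alpha, beta and gamma clusters (dashed lines), with points for single samples and a grey line at 3 counts. PCDHGA1 and PCDHGA10 lie at 139 counts or more in each sample, PCDHA1, PCDHAC2 and PCDHAC1 between 9 and 81 counts, and the other genes at 17 counts or fewer.

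PCDHGA10 fell in CRLM1-OE. It had 175, 139 and 147 counts in CRLM1-OE, 295, 185 and 216 in Ctrl and 203, 205 and 207 in Anti, and all CRLM1-OE samples lay below all others. The log2 fold change was -0.70 (SE 0.11, edgeR adjusted p = 6.0e-09) against Ctrl and -0.48 (SE 0.12, adjusted p = 1.3e-04) against Anti, and -0.24 (SE 0.11, adjusted p = 0.092) in Anti against Ctrl, where it was -0.33 (adjusted p = 0.024) without Ctrl replicate 2. Against Anti PCDHGA10 did not pass in limma on log2(FPKM + 0.1) (adjusted p = 0.057). PCDHGA1 had 142, 174 and 164 counts in CRLM1-OE, 238, 176 and 165 in Ctrl and 192, 169 and 192 in Anti, and the groups overlapped. It was lower against Ctrl (-0.37, SE 0.12, adjusted p = 0.0072) and did not pass against Anti (-0.26, adjusted p = 0.072). Without Ctrl replicate 1 the value of PCDHGA1 was -0.30 (adjusted p = 0.083), and without CRLM1-OE replicate 1 it was -0.21 (adjusted p = 0.27). By the DESeq2 Wald test or in limma on log2(FPKM + 0.1) PCDHGA1 did not pass against Ctrl. Against Anti it was -0.41 (adjusted p = 0.0065) without CRLM1-OE replicate 2.

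Of the alpha genes 0 passed in any comparison by edgeR, DESeq2 or limma, and 1, 0 and 0 had an unadjusted edgeR p under 0.05 in the 3 comparisons. PCDHAC2 had 46 to 81 counts and PCDHA1 35 to 78 per sample, with log2 fold changes in CRLM1-OE against Ctrl of -0.15 (adjusted p = 0.58) and 0.22 (adjusted p = 0.45). PCDHGB2 had 6, 11 and 6 counts in CRLM1-OE, 12, 17 and 15 in Ctrl and 10, 3 and 5 in Anti, with Ctrl above each sample of the others. It passed in Anti against Ctrl (-1.36, SE 0.47, edgeR adjusted p = 0.018) and not in CRLM1-OE against Ctrl (-1.03, SE 0.44, adjusted p = 0.062), where it was -1.47 (adjusted p = 0.018) without CRLM1-OE replicate 2 and -1.25 (adjusted p = 0.031) without Ctrl replicate 1. PCDHB9 had 2, 3 and 3 counts in CRLM1-OE, 1, 0 and 2 in Ctrl and 6, 5 and 7 in Anti, and passed in Anti against Ctrl (2.38, SE 0.93, adjusted p = 0.044). With Ctrl at or under 3 counts this fitted value depends on the prior count, and the summed counts (18 against 3, scaled to the library totals) give a ratio of 6.16 (exact 95% interval 1.80 to 32.6, for counting error only). The result of PCDHGB2 was lost without Ctrl replicate 2 or 3 or Anti replicate 2 or 3 (adjusted p from 0.055 to 0.13), and that of PCDHB9 without any 1 of Ctrl replicates 1 and 2 or of the Anti replicates (adjusted p from 0.071 to 0.18).

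Promoters of most clustered genes share a conserved element with the core CGCT, near which CTCF binds in the active genes of other cells. CGCT on the strand of the gene was found in the 250 bases upstream of 36 of the 37 clustered genes with a window, beside 48.1% of all windows, and 24 of them hold it once. Only the core was searched, so a hit is not by itself the element. GGGCGG was in 0 of the 37. Around that single CGCT (capitals), 22 bases are shown for gamma genes with many and with few counts and for a pair of alpha genes, all from the forward strand of chromosome 5 in RefSeq on GRCh38.p14.
PCDHGA10: aggactctgagcgcCGCTgttc
PCDHGA9: aggactctgagcgcCGCTgttg
PCDHGA1: aggactgtgggcgcCGCTgttc
PCDHGA8: aggactgtaagcgcCGCTgttc
PCDHGA2: aggcctctgagcgtCGCTgttg
PCDHA1: tggccacatgatgtCGCTgtac
PCDHA8: aagccacatgatgtCGCTgtct
With positions counted from 1 at the 5′ end and PCDHGA10 as reference, PCDHGA9 differs by C22G alone, PCDHGA8 by C7G and G9A, PCDHGA1 by C7G and A10G, and PCDHGA2 by A4C, C14T and C22G. PCDHGA10 (chr5:141412933-141412954) had 139 to 295 counts per sample and PCDHGA1 (chr5:141330405-141330426) 142 to 238. PCDHGA9 (chr5:141402716-141402737), with 1 base changed, had 1 to 16, PCDHGA8 (chr5:141392570-141392591) 0 to 3 and PCDHGA2 (chr5:141338705-141338726) 0 to 3. PCDHA1 (chr5:140786088-140786109) had 35 to 78 and PCDHA8 (chr5:140841132-140841153) 0 to 1. Nearly the same letters thus stand before gamma genes of very different count, though counts of single alpha and gamma genes are uncertain. The cause of these differences in count was not tested.

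Among the cadherin-related genes, CDHR5 (mucin-like protocadherin), which links the tips of intestinal microvilli together with CDHR2, had 14, 6 and 7 counts in CRLM1-OE, 3, 3 and 1 in Ctrl and 0, 6 and 0 in Anti. CRLM1-OE lay above Ctrl and touched the highest Anti sample. CDHR5 passed against Ctrl (log2 fold change 1.78, SE 0.68, edgeR adjusted p = 0.031) and against Anti (2.02, SE 0.70, adjusted p = 0.013). The summed counts, 27 against 7 in Ctrl and 6 in Anti, give ratios of 3.95 (exact 95% counting interval 1.68 to 10.7) and 4.49 (1.81 to 13.3). Without CRLM1-OE replicate 1 the log2 values were 1.41 (adjusted p = 0.26) and 1.65 (adjusted p = 0.16). The result against Ctrl was also lost without Ctrl replicate 1 or 3 (adjusted p = 0.060 and 0.12), and that against Anti without Anti replicate 1 or 3 (adjusted p = 0.13 and 0.11). Without Anti replicate 2 the 2 other Anti samples are at 0 and the fitted value, 6.15, depends on the prior count. By the DESeq2 Wald test CDHR5 passed in neither (adjusted p = 0.093 against Ctrl and 0.091 against Anti). In limma on log2(FPKM + 0.1) it also passed in neither (adjusted p = 0.11 against Ctrl). CDHR2 had 2 to 11 counts per sample and passed in none, and CDHR1, CDHR3 and CDHR4 held 6 to 49 counts over all samples.

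Partner genes of the cadherins were read from 5 lists. The core catenins were abundant in all samples. CTNNB1 (beta-catenin) was higher in CRLM1-OE than in Ctrl (log2 fold change 0.39, edgeR adjusted p = 1.2e-47) and Anti (0.29, adjusted p = 3.2e-33), with 0.078 (adjusted p = 0.016) in Anti against Ctrl. JUP (plakoglobin) was higher in CRLM1-OE than in Ctrl (0.25, adjusted p = 2.0e-29) and Anti (0.57, adjusted p = 1.2e-190) and lower in Anti than in Ctrl (-0.34, adjusted p = 3.7e-52), as was CDH3 in the last of these. CTNNA1 (alpha-catenin), which ties the complex to actin, was lower in CRLM1-OE than in Ctrl (-0.23, adjusted p = 4.2e-24) and Anti (-0.096, adjusted p = 3.7e-06). CTNND1 (p120), which keeps cadherins at the surface, was at -0.023 (adjusted p = 0.56) against Ctrl and -0.19 (adjusted p = 1.5e-16) against Anti.

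The counts of these lists are to be read beside 15% higher and 16.8% lower of all genes tested in CRLM1-OE against Ctrl, and 3704 higher and 4748 lower of the 12941 genes with a mean of at least 50 counts (65.3% in both directions). These shares are from TMM scaling, and those under library totals are not given here. No list was tested as a set, so its counts and median are given as values only. Of the 18 catenins and junction partners, 17 were tested in CRLM1-OE against Ctrl, and 6 were higher and 2 lower, or 11 and 2 under library totals. ARVCF, a catenin of the p120 group, had 1243 to 1466 counts in CRLM1-OE and 579 to 675 in Ctrl, without overlap. It passed the 2-fold limit (1.02, edgeR adjusted p = 6.7e-75) and was also higher in Anti than in Ctrl (0.38, adjusted p = 1.3e-08). AFDN of the same list stayed just under that limit in CRLM1-OE against Ctrl (0.98, adjusted p = 1.2e-110). Under library totals 2 genes of the list passed the limit. Of the 11 genes of cadherin cleavage, which release the outer part or the tail of a cadherin, 2 were higher and 6 lower, or 4 and 3 under library totals. Of the 15 planar polarity and FAT or DCHS partners 3 were higher and 4 lower, or 7 and 2 under library totals, and of the 9 microvillus genes 2 were higher and 2 lower, or 2 and 1.

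Of 19 regulators of the clustered protocadherin locus (CTCF, cohesin and its loaders, DNA methyltransferases and repressors), in CRLM1-OE against Ctrl 3 were higher and 15 lower. Their median was -0.28 on the log2 scale, beside 0.017 over all genes and -0.039 over genes with a mean of at least 50 counts. Library totals, which move all values of this comparison upward, gave 4 higher, 9 lower and a median of -0.14. The 3 higher genes were DNMT3A, DNMT3B and EHMT1, and CTCF itself was at -0.029 (adjusted p = 0.68). STAG1, a cohesin subunit, had 228 to 299 counts in CRLM1-OE, 424 to 581 in Ctrl and 521 to 601 in Anti, without overlap of CRLM1-OE with the others. It was at -0.97 (edgeR adjusted p = 6.2e-30) against Ctrl, just under the 2-fold limit. Against Anti it was at -1.10 (adjusted p = 4.3e-41), past that limit. DNMT3A, DNMT3B and EHMT1 were named after their values were seen.

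Against Anti, where 4306 of the 12941 genes with at least 50 counts on average were higher and 5033 lower (72.2% in all), the lists gave 8 higher and 5 lower (junction partners), 1 and 7 (cleavage), 5 and 6 (planar polarity), 3 and 2 (microvillus) and 2 and 15 (cluster regulators), or 9 and 3, 1 and 5, 5 and 5, 3 and 2, and 2 and 14 under library totals. PRICKLE2, a cytoplasmic polarity protein, with 10 to 16 counts in CRLM1-OE and 4 to 5 in Anti, was higher (1.42, edgeR adjusted p = 0.017), and MYO1A, a microvillus myosin, with 3 to 9 and 12 to 16, was lower (-1.17, adjusted p = 0.033), both past the 2-fold limit. In Anti against Ctrl, with 3101 higher and 3478 lower of those 12941 genes (50.8%), the same lists gave 5 and 6, 5 and 3, 6 and 2, 0 and 3, and 6 and 2. Under library totals these became 7 and 2, 5 and 0, 7 and 1, 0 and 2, and 14 and 0.

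**Figure D4:**
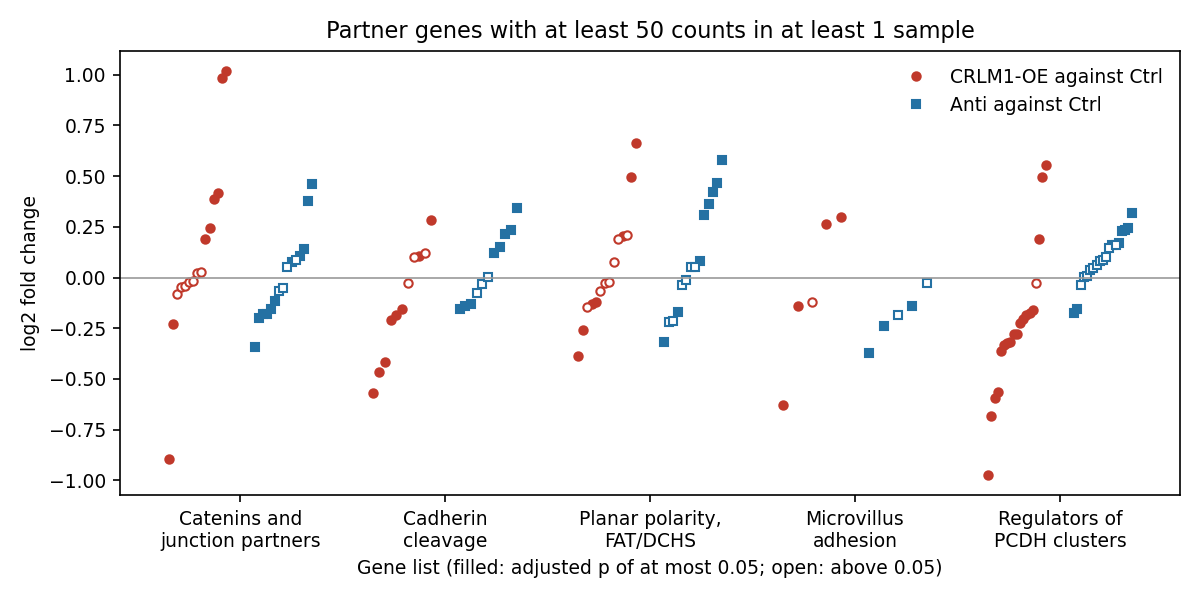
Log2 fold change (vertical axis) of the 64 partner genes with at least 50 counts in at least 1 sample, by list, in CRLM1-OE against Ctrl (circles) and Anti against Ctrl (squares); filled points have an adjusted p of at most 0.05. Most cluster regulators lie below 0 in CRLM1-OE against Ctrl, with STAG1 lowest at -0.97, and ARVCF lies highest among the junction partners at 1.02.

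The cells carried epithelial markers, with gaps. EPCAM, CDH1, KRT8, KRT18 and KRT19 were abundant, and VIL1 (1 to 10 counts) and LGALS4 (0 to 5), which mark differentiated colonic epithelium, were near 0. The 7 epithelial markers summed to 9460 to 9590 CPM in CRLM1-OE, 10600 to 10700 in Ctrl and 9220 to 9320 in Anti. Of the 7, 4 passed as lower in CRLM1-OE against Ctrl, or 3 lower and 1 higher under library totals. Beside them, 16.8% of all genes were lower, as were 4748 of the 12941 genes with a mean of at least 50 counts. KRT18 fell most (32694 to 41018 counts, beside 62583 to 79054 in Ctrl). With TMM scaling CDH1 was at -0.052 (edgeR adjusted p = 0.21) in CRLM1-OE against Ctrl. Against Anti it was lower (-0.11, adjusted p = 1.0e-04). The fibroblast markers summed to 15.9 to 19.2, 8.99 to 9.55 and 9.70 to 10.8 CPM, almost all from COL1A1 (617 to 652 counts in CRLM1-OE), with COL1A2 and DCN at 0 to 3 counts. LUM and CD3E were not analysed here. Endothelial markers summed to at most 1.19 and leukocyte markers to at most 0.266 CPM. Neuronal markers summed to 30.2 to 33.6, 37.6 to 41.8 and 46.4 to 50.9, mostly SYT1 (966 to 1880 counts per sample), beside RBFOX3 and SNAP25 at 1 to 7 counts. The part of these differences in the cadherin results was not tested.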

How the data were processed

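RNA-seq of HCT116 cells in 3 groups (CRLM1-OE, Ctrl, Anti) with 3 biological replicates each was used, with samples grouped by their labels. After trimming (FASTX-Toolkit, reads shorter than 16 nt removed), the authors aligned reads by TopHat2 to GRCh38 with up to 4 mismatches and Gencode version 23. They deposited raw gene counts of uniquely mapped reads. FPKM values, normalized by the authors for exon length and library, were deposited to 2 decimals. The counter, its use of strand and overlapping genes, and the rule for an expressed gene are not given in the sources used here.

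Every gene with at least 1 count in the 6 samples of a comparison was tested with the quasi-likelihood test of edgeR 4.0.16 (R 4.3.3, TMM scaling, no covariate), with Benjamini-Hochberg adjustment over all genes. A gene passed at an adjusted p of at most 0.05, and the 2-fold limit is that of the study. Adjusted p below 1e-300 is written as 1e-300. An exact permutation test of 3 against 3 samples cannot give p below 0.1. Reads carry no molecular identifiers, so the floor of 3 counts covers counting error only.

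The family and the lists of partner and marker genes were chosen with earlier results of these data known. Named genes are members that passed in at least 1 comparison or reached 1 FPKM in a group, the 4 core catenins, and listed genes past 2-fold in a comparison. Genes named outside this rule (FAT4, DCHS1, PCDHAC2, PCDHA1, AFDN, CTCF, DNMT3A, DNMT3B, EHMT1, KRT18, COL1A1, SYT1 and members given by their counts alone) were chosen after their values were seen. Positions come from GENCODE version 44 and windows from RefSeq. Motifs were searched on both strands for GGGCGG and on the strand of the gene for CGCT.

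Alternatives were RLE factors, library totals, filterByExpr, the Wald test of DESeq2 1.42.0, limma 3.58.1 on log2(FPKM + 0.1) and log2(FPKM + 1), all 9 samples in 1 fit, the replicate block, each replicate left out, an adjusted p of at most 0.01 and the count without PCDHA and PCDHG genes. The fits were tested on simulated data. Plots used Python 3.11.15, pandas 2.3.3 and matplotlib 3.10.9.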

Additional observations from a re-analysis of the deposited data

How the results depend on the processing

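Of 621 single values of the named genes under alternatives, 539 kept their direction and their side of the threshold, 56 lost it, 15 gained it and 11 changed sign, and none of the 11 had passed. Those were CDH3 in CRLM1-OE against Ctrl (-0.015 with all 9 samples), PCDH1 in the same (-0.0094 with all 9 samples), CELSR1 against Anti (0.011 under library totals), and, with 1 replicate left out, CDH3 (range -0.011 to 0.026), PCDH1 (-0.013 to 0.041), PCDHGB2 against Anti (-0.13 to 0.81), and CDHR5 (-4.32 to 0.32) and FAT2 (-0.68 to 0.41) in Anti against Ctrl. The CELSR genes, FAT1 and PCDHGA10 passed in CRLM1-OE against Ctrl under every alternative.

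In CRLM1-OE against Ctrl, the 5 higher members became 10 under library totals, 3 by the DESeq2 Wald test and 3 at an adjusted p of 0.01, and the 4 lower became 2 under library totals, 2 in limma at both pseudocounts and 2 without the PCDHA and PCDHG genes. Past 2-fold, the 2 higher became 1 by filterByExpr, DESeq2, limma with 0.1 added and the replicate block, and 0 with 1 added, and the 0 lower became 1 by filterByExpr. Against Anti, the 7 higher became 4 in limma at both pseudocounts, the 2 past 2-fold 1 by filterByExpr and DESeq2 and 0 in limma, and 1 gene was lower past 2-fold with all 9 samples. In Anti against Ctrl, the 1 higher past 2-fold became 0 by filterByExpr, DESeq2, limma and the replicate block, the 1 lower became 0 by filterByExpr, DESeq2 and limma, and the 3 lower members became 1 in limma. The cause was not tested, except that filterByExpr tests fewer genes.

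For the partner genes (alternatives chosen after seeing the data), 16 higher and 29 lower in CRLM1-OE against Ctrl became 28 and 17 under library totals, and the lower 16 in limma at both pseudocounts. The 16 lower in Anti against Ctrl became 5 under library totals and in limma.

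With 1 replicate left out, the members passing ranged from 4 to 6 higher and 2 to 5 lower in CRLM1-OE against Ctrl, from 6 to 7 and 4 to 6 against Anti, and from 5 to 6 and 2 to 4 in Anti against Ctrl. Past 2-fold the ranges were 1 to 4 and 0 to 1, 1 to 2 and 0 to 1, and 0 to 1 and 0 to 1. Partner genes ranged from 15 to 16 and 24 to 29, 18 to 19 and 32 to 36, and 19 to 24 and 13 to 17.

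Same-numbered replicates did not deviate together (r from -0.0873 to 0.0813 over 9 pairs), which cannot show whether they were prepared together. With the replicate block, 4 members were higher and 4 lower in CRLM1-OE against Ctrl, 7 and 4 against Anti and 5 and 3 in Anti against Ctrl. The calls lost were CDHR5 against Ctrl (adjusted p = 0.065) and PCDHB9 (0.11).

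Depth limits the family: 61 of 80 genes averaged below 10 counts, and 3 of these (CDHR5, PCDHB9 and PCDHGB2) passed in a comparison.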
